A study of Mus musculus with 36 samples.

Results

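B3 is an established line of mouse B cell precursors held at the pre-BI stage, also called Hardy fraction C'. Messenger RNA was sequenced from 2 lines derived from it. The Ikaros line carried a mouse stem cell virus (MSCV) retroviral vector encoding haemagglutinin-tagged Ikaros fused to ERt2, the hormone-binding domain of the estrogen receptor, with GFP expressed from the same transcript through an IRES. The control line carried the same vector with ERt2, the IRES and GFP but without Ikaros. Here the 3 Ikaros libraries and the 3 control libraries collected at 0 h were compared, 6 of the 36 libraries of the series, over all 12762 genes of the deposited table. The members were taken by their line and time labels and not by any measured value.

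At 0 h, per the study's methods, neither line had received 4-hydroxy-tamoxifen (4-OHT), the ligand that moves the fusion protein into the nucleus. The sample labels nevertheless list 0.5 uM 4-OHT for every sample, including those at 0 h, so the untreated state rests on the methods text. The 0 h cells were grown separately in culture batches 1, 2 and 4, and each batch gave 1 library of each line. Both lines were pools of infected cells sorted for GFP and expanded for a few days before freezing, and the 3 libraries of a line are treated here as cultures of 1 such pool. The limma p-values below therefore measure the spread between libraries within a group, pooled over all 36 libraries, and not that between transductions. That spread includes library preparation as well as culture, and a second transduction was not analysed here. Whether a difference came from the vector's cargo or from the sorted pool itself cannot be told apart in this design.

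Ikaros, the product of Ikzf1, is a zinc finger DNA-binding protein of lymphoid cells that recruits the NuRD chromatin complex and other co-regulators to its sites. In pre-B cells it is known to restrain the proliferation driven by the pre-B cell receptor and by interleukin-7, and to promote differentiation and exit from the cell cycle. Fusion to ERt2 holds such a factor mostly in the cytoplasm until its ligand is added. The comparison at 0 h asks how far the 2 lines differed before that addition.

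The 6 libraries had medians between 11.71 and 11.73 on the deposited log2 scale. Pearson correlations across genes were 0.988 to 0.992 within a line (6 pairs) and 0.968 to 0.977 between the lines (9 pairs), and genes are not independent replicates. The median SD over genes was 0.133 in the control line and 0.156 in the Ikaros line, against 0.135 to 0.242 in the groups collected later. No 2 of the 6 libraries shared any identical value, so none was a copy of another. Both lines held transcripts of their labelled type, at somewhat lower summed levels in the Ikaros line. All 12 pre-B cell markers examined had a row, and 10 of them did not pass the test, among them Pax5 (difference -0.12, adjusted p = 0.837), Ebf1 (-0.33, adjusted p = 0.33) and Igll1 (-0.22, adjusted p = 0.624). The other 2 were lower in the Ikaros line, and Cd79a is described with the pre-B receptor genes. The log2 of the summed linear values of the 12 markers was 19.63 to 19.97 in the control line. In the Ikaros line it was 19.42 to 19.6, so every Ikaros library lay below every control library. A marker that did not pass the test is not thereby shown to be equal.

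Between the lines 1063 of the 12762 genes differed at an adjusted p below 0.05 (limma, Benjamini-Hochberg adjustment over all genes), which is 8.33% of the genes tested. Of these, 588 genes (4.61%) were higher in the Ikaros line and 475 (3.72%) were lower. An absolute log2 difference of at least 1 was reached by 474 of the called genes (3.71% of all genes), 283 higher and 191 lower. The median absolute log2 difference was 0.87 among the called genes and 0.18 over all genes. The 1063 called genes had the same sign in all 3 culture batches, but they were called on these same libraries, so this is not separate evidence. Protein coding genes made up 93.0% of the called genes and 86.1% of all genes, while 9 of 411 processed pseudogenes and 0 of 131 snoRNA genes were called (2 of the snoRNA genes had an unadjusted p below 0.05).

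The size of this set depended on the fit. Each of the 6 libraries at 0 h came from a different library preparation run, and with the preparation run as a term the count was 443 genes, all of them among the 1063. Without both libraries of batch 1, 2 or 4 the count was 559, 495 or 642 genes, and without the Ikaros library of batch 2 alone it was 683. The lower genes numbered 296 without the control library of batch 2 and 286 without the Ikaros library of that batch.

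**Figure D1:**
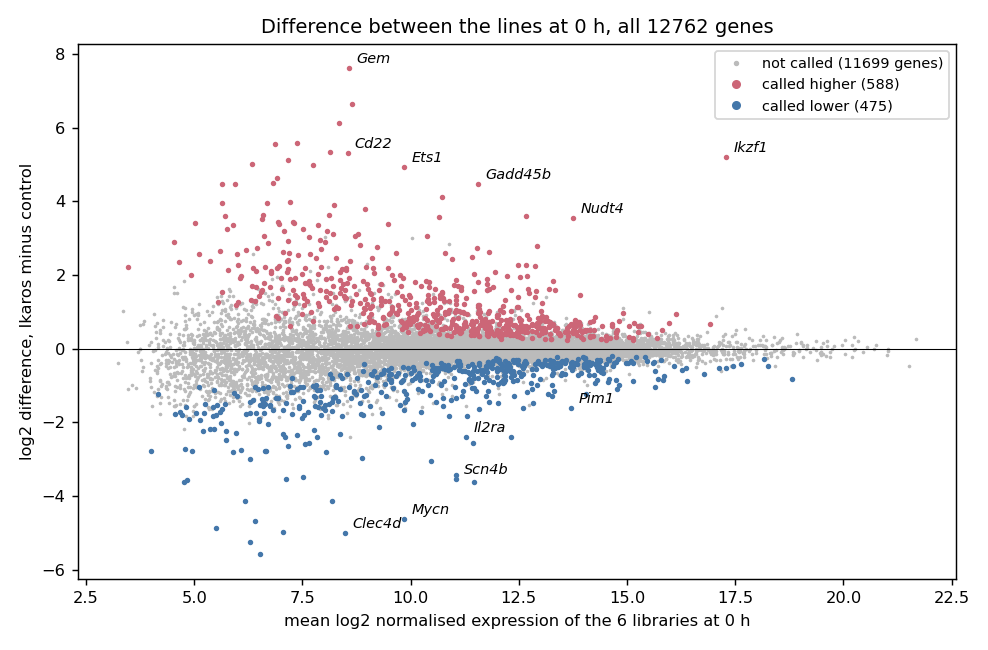
The log2 difference between the lines (Ikaros minus control, vertical axis) against the mean log2 normalised expression of the 6 libraries at 0 h (horizontal axis), 1 point per gene. Red points are the 588 genes called higher and blue points the 475 called lower in the Ikaros line; the widest differences lie at low expression, where Gem reached 7.61, and Ikzf1 lies far to the right at 5.19.

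Ikzf1 was measured at 14.77, 14.59 and 14.74 in the control libraries of batches 1, 2 and 4 and at 20.02, 19.71 and 19.94 in the Ikaros libraries. Every Ikaros library lay far above every control library, in the direction of the labels. The log2 difference was 5.19 ± 0.18 (SE of the model over all 36 libraries, n = 3 per line), or 36.5-fold, with an adjusted p of 5.28e-17 (limma). RNA transcribed from the vector carries the Ikaros coding sequence, so it and RNA of the endogenous gene at chromosome 11, 11685003 to 11772926 (mm10), cannot be told apart in this value. Of the other members of the Ikaros family, Ikzf3, which encodes the lymphoid factor Aiolos, was higher as well. It was at 6.70, 6.45 and 7.34 in the control libraries and at 9.17, 8.66 and 9.32 in the Ikaros libraries, 2 groups that did not overlap (difference 2.22 ± 0.53, adjusted p = 0.00633). Of the NuRD complex, 1 of 13 subunits passed the test (7.69%, near the 8.33% of all genes). This was Mta1 (0.32 ± 0.10, adjusted p = 0.0371), which lost its call in 11 of 18 alternatives. Mouse Esr1, whose human counterpart supplies the hormone-binding domain, was not called (0.46 ± 0.36, adjusted p = 0.56).

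Among genes whose mean expression reached the 25th percentile, the 15 largest rises and the 15 largest falls ran from 5.19 to 2.08 and from -4.63 to -1.62 on the log2 scale. They were taken only from genes whose 2 groups did not overlap, so their separation is a property of how they were chosen. After Ikzf1, the largest rise was that of Ets1, a transcription factor of lymphocytes. Ets1 was at 7.10, 7.23 and 7.80 in the control libraries and at 12.44, 12.02 and 12.47 in the Ikaros libraries, a difference of 4.93 ± 0.35 (adjusted p = 1.71e-10). Gadd45b, a stress-responsive gene linked to growth arrest, came next. It was at 9.26, 9.27 and 9.45 in the control line and at 13.89, 13.73 and 13.74 in the Ikaros line, 22-fold higher (4.46 ± 0.22, adjusted p = 1.06e-13). Its relatives Gadd45a (-0.41, adjusted p = 0.389) and Gadd45g (0.24, adjusted p = 0.852) were not called.

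Nudt4, an enzyme that removes phosphate from diphosphoinositol polyphosphates, was at 12.04, 11.68 and 12.25 in the control libraries and at 15.34, 15.72 and 15.54 in the Ikaros libraries (3.54 ± 0.25, adjusted p = 1.71e-10). Nrgn, the calmodulin-binding protein neurogranin, differed by 3.59, with control values of 10.71 to 11.12 and Ikaros values of 14.20 to 14.76. On the linear scale these are 11.7-fold for Nudt4 and 12.1-fold for Nrgn, and the groups of both genes were well apart. Klra1, a receptor of the Ly49 family best known from natural killer cells, differed by 3.10; members of that family are close in sequence, so its assignment is uncertain. Ndrg1, a gene induced by stress and low oxygen, differed by 2.79. Mvb12b (2.74) belongs to the ESCRT-I sorting complex, and Rgs8 (2.60) and Adcy6 (2.24), an adenylyl cyclase, act in G protein signalling. St5 (2.61), Spa17 (2.50), Emp1 (2.28), Colq (2.28) and Nsg2 (2.08) completed the 15.

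The largest fall was that of Mycn, the N-Myc transcription factor of early lymphoid progenitors. Mycn was at 11.82, 12.19 and 12.50 in the control libraries and at 7.31, 7.75 and 7.56 in the Ikaros libraries, 24.8-fold lower (-4.63 ± 0.51, adjusted p = 2.7e-07). Myc itself was not called (-0.07 ± 0.17, adjusted p = 0.894). Scn4b, a sodium channel beta subunit, was at 12.72, 12.86 and 12.90 in the control line and at 9.39, 9.12 and 9.35 in the Ikaros line (-3.54 ± 0.48, adjusted p = 8.09e-06). For both genes the lowest control library was at least 3.33 log2 units above the highest Ikaros library.

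Further falls included the long noncoding RNA genes Gm12840 (-3.61) and A930003A15Rik (-1.72), the adult beta globin gene Hbb-b2 (-3.43), Crisp1 (-2.98), the cAMP phosphodiesterase Pde8a (-2.39), the Rab GTPase regulator Tbc1d16 (-1.84), Cmtm8 (-1.84), Crip2 (-1.66) and Lrrc32 (-1.63), whose product GARP presents latent TGF-beta. The remaining 3 of the 15, Il2ra, Cish and Pim1, belong to the cytokine signalling genes below. Crisp1 had the weakest test of the 30 (adjusted p = 0.0246) and lost its call in 8 of 18 alternatives, so it is the least certain of them. Hbb-b2 varied most among the Ikaros libraries, from 8.44 in batch 1 to 10.30 in batch 4.

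**Figure D2:**
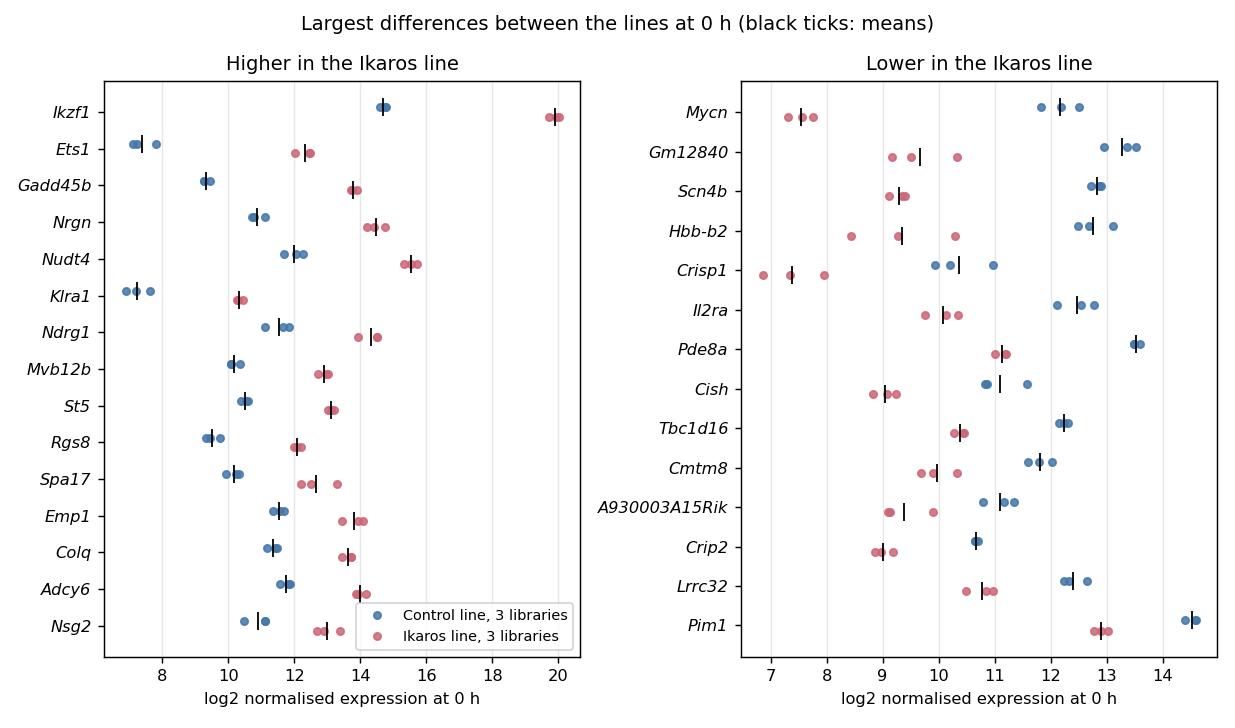
The log2 normalised expression at 0 h (horizontal axis) of the 15 genes with the largest rises (left) and 14 of the 15 with the largest falls (right) in the Ikaros line, 1 point per library, with blue for control, red for Ikaros and black ticks for the means. The groups do not overlap in any gene drawn, as the choice of genes required; Ikzf1 runs from 14.70 to 19.89 in the means and Mycn from 12.17 to 7.54.

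In pre-B cells, interleukin-7 and related cytokines signal through Jak1, Jak3 and Stat5, and active Stat5 is known to induce Cish, Socs1, Socs2, Pim1 and Il2ra and to repress Bcl6. Of the 17 measured members of the list of cytokine receptors and JAK-STAT genes, 6 passed the test (35.3%, against 8.33% of all genes), 5 of them lower and 1 higher in the Ikaros line. The median difference of the list was -0.40, against -0.03 over all genes. Il2ra, the interleukin-2 receptor alpha chain CD25, was at 12.77, 12.54 and 12.12 in the control libraries and at 10.13, 10.35 and 9.75 in the Ikaros libraries (-2.40 ± 0.25, adjusted p = 1.33e-07). Cish, an inhibitor of cytokine signalling, was at 10.82, 10.87 and 11.57 in the control line and at 9.07, 8.83 and 9.23 in the Ikaros line (-2.05 ± 0.38, adjusted p = 0.000458). The control library of batch 4 was the highest, and the groups were 1.60 log2 units apart at their nearest.

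Pim1, a serine/threonine kinase of cell survival, was at 14.59, 14.39 and 14.58 in the control libraries and at 13.02, 12.78 and 12.90 in the Ikaros libraries (-1.62 ± 0.28, adjusted p = 0.000183). The suppressors of cytokine signalling Socs2 (-1.0 ± 0.24, adjusted p = 0.00725) and Socs1 (-0.96 ± 0.23, adjusted p = 0.00688) were each about 1 log2 unit lower. Bcl6, a transcriptional repressor, moved the other way. It was at 9.05, 8.86 and 8.35 in the control libraries and at 10.87, 10.67 and 10.72 in the Ikaros libraries (2.00 ± 0.38, adjusted p = 0.000582), with no overlap. The receptor and its transducers were not called: Il7r differed by -0.40 (adjusted p = 0.158), Il2rg by -0.34 (0.311), Stat5a by -0.61 (0.0614), Stat5b by -0.49 (0.107), and Socs3 by -1.19 (0.0679). With a block, 9 (batch number of the labels) or 10 (0 h cultures as blocks of their own) of the 17 members were called.

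The 300 bases around the start sites of 4 genes (250 before and 50 after, RefSeq on GRCm38.p6, each written on its gene's strand from 5′ to 3′) are shown because these genes carry the largest responses of the cytokine list and the surface markers or hold the searched letters. In Cish (chr9:107296409-107296708, + strand) and Bcl6 (chr16:23981234-23981533, - strand) the capitals mark the letters TTCNNNGAA, the pattern bound by STAT proteins. In Socs1 (chr16:10785487-10785786, - strand) and Cd22 (chr7:30878979-30879278, - strand) they mark TGGGAA, the core bound by Ikaros. Both strands were searched.
Cish: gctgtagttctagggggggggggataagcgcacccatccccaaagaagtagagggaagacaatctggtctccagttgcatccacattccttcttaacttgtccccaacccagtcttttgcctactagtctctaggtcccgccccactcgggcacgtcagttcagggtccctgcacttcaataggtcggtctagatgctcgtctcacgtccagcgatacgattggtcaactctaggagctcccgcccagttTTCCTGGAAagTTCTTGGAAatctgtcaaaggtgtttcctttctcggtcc
Bcl6: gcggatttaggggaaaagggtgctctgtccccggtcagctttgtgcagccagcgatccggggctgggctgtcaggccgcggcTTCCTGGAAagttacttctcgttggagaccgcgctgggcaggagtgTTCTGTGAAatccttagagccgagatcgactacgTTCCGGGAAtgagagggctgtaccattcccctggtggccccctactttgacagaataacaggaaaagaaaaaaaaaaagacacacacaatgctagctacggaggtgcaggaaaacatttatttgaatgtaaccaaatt
Socs1: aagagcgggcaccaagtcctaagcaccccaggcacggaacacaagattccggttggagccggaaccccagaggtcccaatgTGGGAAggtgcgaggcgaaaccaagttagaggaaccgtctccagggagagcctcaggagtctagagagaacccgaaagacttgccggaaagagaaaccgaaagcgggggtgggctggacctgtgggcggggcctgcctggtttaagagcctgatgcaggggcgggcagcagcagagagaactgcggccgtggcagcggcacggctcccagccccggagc
Cd22: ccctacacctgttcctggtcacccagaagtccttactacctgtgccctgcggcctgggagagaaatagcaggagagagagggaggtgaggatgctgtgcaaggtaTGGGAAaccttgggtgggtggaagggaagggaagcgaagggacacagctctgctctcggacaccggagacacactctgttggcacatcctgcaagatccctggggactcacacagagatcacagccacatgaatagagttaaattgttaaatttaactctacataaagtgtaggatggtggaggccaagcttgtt
The Cish window held 2 matches to TTCNNNGAA and this Bcl6 window 3. Of the 17 measured cytokine receptor and JAK-STAT genes, 15 were searched, with 19 promoters, and the called gene Socs2 was not among them. Among these 19 promoters, 5 (26.3%) held TTCNNNGAA. These belonged to Cish, Bcl6 (2 promoters), Il7r and Socs3, and Il7r and Socs3 were not called. The pattern occurred in 8.30% of all 32851 promoters and in 7.03% of the 10928 promoters of genes in the table. It occurred in 6.28% of the promoters of genes called higher and in 7.5% of those of genes called lower. The promoters of Il2ra and Pim1 held neither pattern in these windows. The Ikaros core TGGGAA occurred in 23.6% of the promoters of genes higher in the Ikaros line, in 24.5% of those of genes lower there, and in 22.5% of those of all genes in the table. These letter matches are a description of the windows and not a measure of binding.

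The pre-B cell receptor joins the immunoglobulin heavy chain Ighm to the surrogate light chain of Igll1 and the Vpreb proteins and signals through Cd79a and Cd79b. Of its 7 genes, 2 passed the test and both were lower in the Ikaros line (28.6%, against 8.33% of all genes). Cd79a was at 18.49, 18.54 and 18.41 in the control libraries and at 17.87, 18.12 and 18.03 in the Ikaros libraries (-0.47 ± 0.10, adjusted p = 0.00265). Vpreb2 was at 13.71, 14.01 and 13.97 in the control line and at 12.76, 12.18 and 12.93 in the Ikaros line (-1.28 ± 0.29, adjusted p = 0.00413). Vpreb2 is nearly identical to Vpreb1, so reads could be split between them, and Vpreb1 was not called (-0.34, adjusted p = 0.534). Without the 2 libraries of batch 2 the call of Vpreb2 was lost (adjusted p = 0.146). Ighm differed by -0.06 (adjusted p = 0.925) and Cd79b by -0.18 (adjusted p = 0.38).

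Of 20 measured signalling genes downstream of the receptor, 9 were called (45%, against 8.33% of all genes), 7 lower and 2 higher. The largest was Prkcb, protein kinase C beta, which was at 7.88, 8.44 and 7.47 in the control libraries and at 2.73, 3.63 and 2.82 in the Ikaros libraries (-4.87 ± 0.75, adjusted p = 4.8e-05). In contrast, Rasgrp3, an activator of Ras, was at 4.34, 4.73 and 2.07 in the control libraries and at 9.07, 7.82 and 7.62 in the Ikaros libraries (4.46 ± 0.80, adjusted p = 0.000324). Nfam1, an activating receptor of B cells, was also higher (3.25). These 3 genes were below the 25th percentile of mean expression, and with all such genes left out 4 of the 9 calls in the list remained. At higher expression the tyrosine kinase Syk differed by -0.42 ± 0.09 (adjusted p = 0.00141), the adaptor Dok3 by -0.83 ± 0.10 (adjusted p = 1.06e-06) and the kinase subunit Pik3cd by -0.49 ± 0.07 (adjusted p = 1.32e-05). Tsc1, an inhibitor of mTORC1 in the PI3K and Foxo list, was at 13.85, 13.81 and 13.68 in the control libraries and at 12.46, 12.58 and 12.64 in the Ikaros libraries (-1.22 ± 0.08, adjusted p = 2.19e-11).

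Of 17 surface markers that change through B cell stages, 7 were called (41.2%, against 8.33% of all genes), 3 higher and 4 lower. Cd22, an inhibitory co-receptor that rises with B cell maturation, was at 5.47, 6.14 and 6.06 in the control libraries and at 11.49, 11.67 and 10.43 in the Ikaros libraries (5.31 ± 0.46, adjusted p = 3.74e-09). Every Ikaros library lay above every control library. The tetraspanin Cd53 (1.28) and the Toll-like receptor relative Cd180 (1.23) were also higher, and the 4 lower markers are not named here. The median difference of the list was 0.02, against -0.03 over all genes, so the list did not move in 1 direction.

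Adhesion and migration receptors included 10 called genes of 24 (41.7%, against 8.33% of all genes), 5 in each direction. The integrin chains Itgb3 (3.44 ± 0.29, adjusted p = 1.8e-09), Itgal (2.02 ± 0.17, adjusted p = 2.77e-09) and Itga6 (1.72 ± 0.24, adjusted p = 1.32e-05) were higher in the Ikaros line. S1pr1, a receptor for sphingosine 1-phosphate in lymphocyte egress, was lower (-1.17 ± 0.24, adjusted p = 0.0012), as was Selplg, the selectin ligand PSGL-1 (-0.84 ± 0.14, adjusted p = 0.000118).

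Of 28 measured transcription factors of the B lineage, 6 passed the test (21.4%, against 8.33% of all genes). Besides Ets1, the 4 others that were higher were Id2 (1.54), an inhibitor of E proteins, Tcf4 (0.56), Mef2c (0.46) and Bcl11a (0.43), and Foxo1 was lower (-0.35 ± 0.09, adjusted p = 0.00951). Of 18 alternatives, the call was lost in 9 for Mef2c, in 6 each for Tcf4 and Foxo1, and in 1 for Id2. Of 12 genes of V(D)J recombination and end joining 1 was called, the same share as over all genes (8.33%). It was Dntt, the terminal transferase (1.17 ± 0.37, adjusted p = 0.0474), and its call was lost in 12 of 17 alternatives. Rag1 (0.39, adjusted p = 0.543) and Rag2 (-0.49, adjusted p = 0.0643) were not called.

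Cells enter the cycle through G1, where D-type cyclins act with their kinases and are held back by inhibitors. Of 15 such genes 5 were called (33.3%). Ccnd1, cyclin D1, was at 10.65, 10.71 and 11.06 in the control libraries and at 12.87, 12.53 and 12.72 in the Ikaros libraries (1.90 ± 0.23, adjusted p = 1.48e-06). Ccnd2 (0.70) was higher and Ccnd3 (-0.87 ± 0.11, adjusted p = 2.1e-06) was lower, so the 3 D-type cyclins did not move together. The inhibitors Cdkn2b (0.78) and Cdkn1b (0.66) were higher. Of 54 S phase genes 6 were called (11.1%, 2 higher and 4 lower), and of 54 G2/M genes 2 (3.70%, both higher), against 8.33% of all genes, with medians of -0.06 and 0.10.

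Housekeeping gene sets were counted in the same way. By limma, 0 of 75 mitochondrial ribosomal proteins, 0 of 21 mitochondrially encoded genes and 0 of 9 subunits of the cytosolic chaperonin passed the adjusted test, and 6, 2 and 0 of them had an unadjusted p below 0.05. The lists of Kruppel-like factors (8 genes), Notch receptors and targets (7) and DNA methylation and Tet enzymes (9) also had 0 calls, with 0, 0 and 2 members at an unadjusted p below 0.05. Of 83 cytosolic ribosomal proteins 2 were called, of 76 subunits of oxidative phosphorylation 1, and of 42 genes of ribosome biogenesis 1. Genes of glucose uptake and glycolysis had a median of 0.32, against -0.03 over all genes, and 2 of 21 were called (9.52%, near the 8.33% of all genes), Hk1 (0.65) and Pdk1 (0.74). Pdk1 lost its call in 7 of 18 alternatives, with values from 0.45 to 1.09. Over all 42 lists, 98 of 1000 distinct genes were called (9.80%), close to the 8.33% of all genes. With a block the count was 128 (batch number of the labels) or 149 (0 h cultures as blocks of their own). It was 64 without the control library of batch 4, 62 without the Ikaros library of batch 1, and 50 to 60 without both libraries of a batch.

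**Figure D3:**
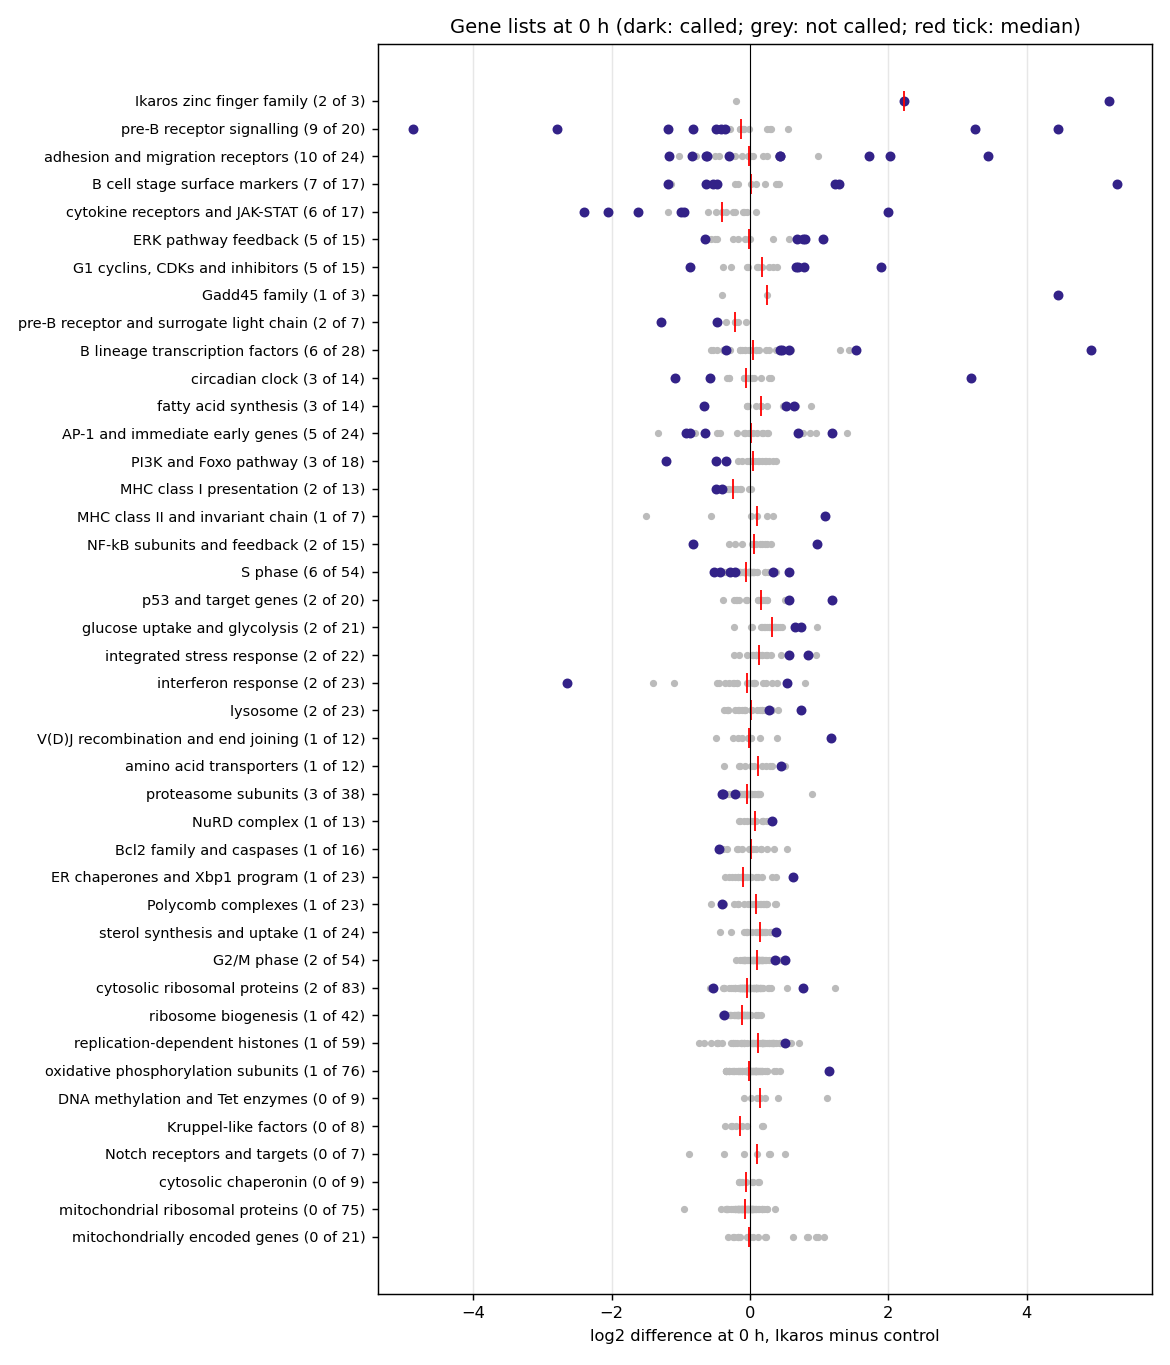
Members of the 42 gene lists by their log2 difference at 0 h (Ikaros minus control, horizontal axis), 1 row per list ordered by the share called, with the number called and measured in brackets. Dark points are called genes, grey points are not, and red ticks are medians. The Ikaros family (2 of 3, with Ikzf1 itself carried by the vector) stands first. Pre-B receptor signalling (9 of 20) and adhesion and migration receptors (10 of 24) follow, and lists without a called member stand at the bottom.

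Very large differences also occurred among the 3191 genes below the 25th percentile of mean expression (9.51), where 361 genes (11.3%) were called, against 7.33% of the other genes. Of the 474 called genes with an absolute difference of at least 1, 324 were below it. These fell outside the rule by which genes were named, and the following were picked after their values were seen. Gem, a small GTP-binding protein, was at 4.69, 5.35 and 4.31 in the control libraries and at 12.82, 12.33 and 12.02 in the Ikaros libraries (7.61 ± 0.34, adjusted p = 8.19e-15), the largest difference of the table. Lamb1, a laminin chain (6.64), and Itga5, the fibronectin receptor alpha chain (6.12), followed. In the other direction Rnf150 (-5.59), Afp, alpha-fetoprotein (-5.24), and Clec4d, a C-type lectin (-5.02), were lower. Counts were not used here, so how many reads stand behind a value near the bottom of the scale is unknown.

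Genes that mark other cell types were examined in the same way, and their part in any result was not tested. Of the 15 myeloid markers 3 had a row, with Prtn3 (1.38) and Lyz2 (2.94) higher and Itgam (-0.78) not called. The defining genes Mpo, Elane, Csf1r and S100a8 had none. The log2 of the summed linear values of this list was 9.68 to 10.21 in the control line and 11.47 to 11.70 in the Ikaros line. Of 16 T cell markers 7 had a row and 3 were higher (Cd28, Lat and Lck), Cd3e, Cd3d and Cd3g had none, and the sums were 13.19 to 13.53 and 14.20 to 14.45. Of 9 natural killer markers 3 had a row, Klrd1 and Nkg7 were higher, Ncr1 had none, and the sums were 7.24 to 7.95 and 9.61 to 10.02. Sparc was the only stromal marker of 9 with a row and was higher (4.62), with no row for any of the collagens listed. Of 6 megakaryocyte markers 3 had a row, with Gp9 higher (1.93) and Itga2b (-0.14) and Gp5 (-0.62) not called. The sums of this list were 9.46 to 9.76 and 10.92 to 11.01. Of 11 erythroid markers 5 had a row, Hbb-b1 and Hbb-b2 were lower, Hba-a1 and Alas2 had none, and the sums were 16.40 to 16.78 and 16.10 to 16.55. The plasma cell marker Mzb1, alone of 6 with a row, was lower (-0.48), and none of the 6 mast cell and basophil markers had one.

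The calls were spread over the genome. On the 20 chromosomes examined (the autosomes and X) the median difference lay between -0.06 and 0.01, and the share of genes called between 4.81% and 10.2%. The exact two-sided permutation test over the 6 libraries cannot go below 0.1 with 3 against 3, a value reached by 10 of the chromosomes (smallest adjusted p 0.2), so no chromosome could pass. In 239 windows of 50 neighbouring genes the medians ranged from -0.29 to 0.16, and no window held more than 10 called genes. Called genes that were next to each other in the table's gene order agreed in direction in 113 of 141 pairs (80.1%). Of all 12546 neighbouring pairs, called or not, 54.5% had differences of the same sign. Most of those genes were not called, and the sign of a small difference is less certain, so the 2 shares are not like for like. On the genome, 20 of the 141 pairs overlap. Pairs in which both differences reached 2 included Gem (7.61) and Cdh17 (5.56) on chromosome 4, Hoxb8 (3.56) and Hoxb7 (3.06) on chromosome 11, and Crisp3 (-2.81) and Crisp1 (-2.98) on chromosome 17, which were picked after their values were seen.

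Libraries collected from the same lines at 2, 6, 12, 18 and 24 h after 4-OHT share none of the 0 h libraries, and each time was tested as Ikaros against control. They were grown from the same sorted pools, so agreement between times is not a second derivation of the lines. These libraries also follow 4-OHT, so a standing difference and a response in the same direction cannot be told apart. Of the 588 genes higher at 0 h, 358 (60.9%) were called higher again at 2 h, against 9.18% of all genes, and 12 (2.04%) were called lower, against 9.88% of all genes. These 358 genes were 30.6% of the 1171 genes called higher at 2 h. Of the 475 genes lower at 0 h, 277 (58.3%) were called lower again at 2 h, which was 22% of the 1261 genes lower at that time, and 16 (3.37%) were called higher.

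At the later times the background grew. Higher calls covered 18.1%, 23.0%, 29.0% and 31.0% of all genes at 6, 12, 18 and 24 h, and lower calls 19.2%, 22.8%, 29.2% and 31.9%. Of the 588 genes, 56.3%, 55.3%, 58.5% and 56.8% were called higher at these times. Of the 475 genes, 52.2%, 45.1%, 44.4% and 44.4% were called lower. Calls in the opposite direction rose to 129 of the 588 (21.9%) and 152 of the 475 (32.0%) at 24 h, the latter close to the 31.0% of all genes that were higher then. Genes already higher at 0 h made up 8.45% of those higher at 24 h, against 4.61% of all genes. Genes already lower at 0 h made up 5.18% of those lower at 24 h, against 3.72% of all genes.

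**Figure D4:**
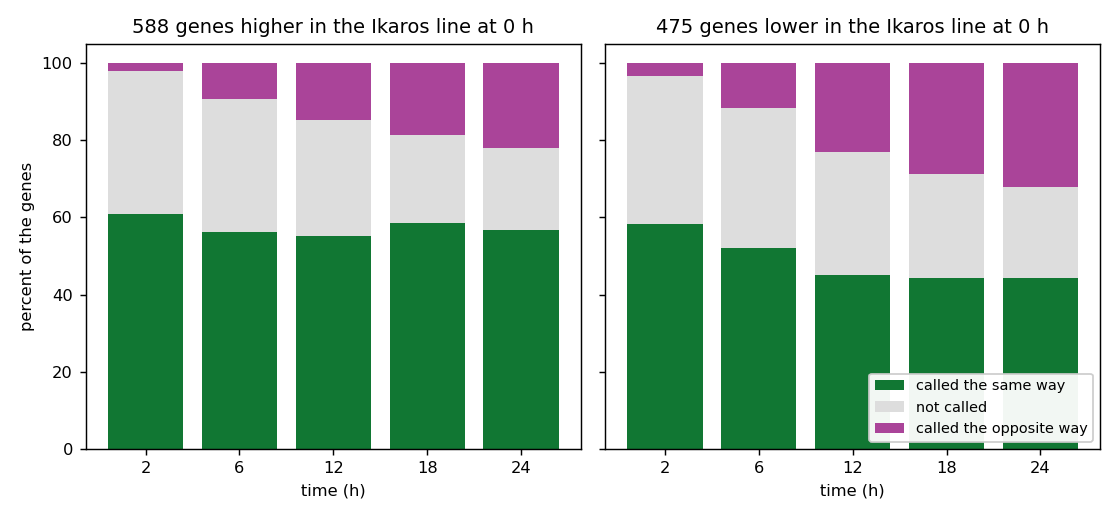
The 588 genes higher (left) and the 475 genes lower (right) in the Ikaros line at 0 h by their call at each later time (horizontal axis, h), in percent of the genes (vertical axis). Green is called the same way, grey not called and purple called the opposite way; at 24 h the same way holds 56.8% and 44.4% and the opposite way 21.9% and 32.0%.

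Calls went the same way at all 6 times for 182 genes higher and 129 genes lower at 0 h, while 27 and 16 genes were called at 0 h alone. Genes whose mean expression reached the 25th percentile were ranked by their smallest absolute difference over the 6 times. By this measure the 5 largest lasting rises were those of Ikzf1, Ets1, Gadd45b, Klra1 and Fcgr2b, the inhibitory Fc receptor of B cells. At 24 h Ets1 stood at 7.84 and Klra1 at 7.28 log2 units above the control line, both further apart than at 0 h. Fcgr2b was at 6.91, 7.39 and 7.65 in the control libraries and at 9.66, 9.22 and 9.32 in the Ikaros libraries at 0 h (2.08 ± 0.32, adjusted p = 4.55e-05), and its difference was 7.08 at 24 h. By the same measure and limit, the largest lasting falls included Scn4b, Mycn, Pde8a and Prkch, protein kinase C eta. Prkch differed by -1.49 ± 0.26 at 0 h (adjusted p = 0.000275) and by -2.39 at 24 h.

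Other differences turned round after 4-OHT. Among genes higher at 0 h and lower at 24 h, the 5 largest at 24 h were Spry4, an inhibitor of receptor tyrosine kinase signalling, Ccnd1, Ptgs1, which encodes cyclooxygenase-1, the T-box factor Tbx19, and Ccnd2. The Ccnd1 difference fell from 1.90 before the drug to 0.35 at 2 h and -1.59 by 6 h, and was -4.13 after 24 h. Spry4 went from 0.80 to -0.85 at 2 h and -4.26 at 24 h, and Ptgs1 went from 0.71 to -4.05, Tbx19 from 0.73 to -3.89 and Ccnd2 from 0.70 to -3.25. These 4 calls at 0 h were less certain than that of Ccnd1: of 18 alternatives, Tbx19 lost its call in 10, Spry4 in 9, Ptgs1 in 6 and Ccnd2 in 5.

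Among genes lower at 0 h and higher at 24 h, the 5 largest were Akap12, a scaffold of protein kinase A, the deubiquitinase Otub2, Sepp1, which encodes selenoprotein P, Gas7 and D930015E06Rik. Akap12 was at 13.47, 13.21 and 13.38 in the control libraries and at 12.00, 12.29 and 12.43 in the Ikaros libraries at 0 h (-1.11 ± 0.27, adjusted p = 0.00807), and its difference was 4.75 at 24 h. Otub2 went from -0.69 to 4.4, Sepp1 from -1.16 to 3.52, Gas7 from -1.29 to 3.49 and D930015E06Rik from -0.50 to 3.19. The 0 h call was lost in 7 of 18 alternatives for Gas7, in 3 each for Akap12 and Otub2, and in 1 for Sepp1. Il2ra followed the same course from a larger fall, with differences of -2.40 before the drug, -1.97 and -0.08 after 2 and 12 h, and 2.43 by 24 h.

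**Figure D5:**
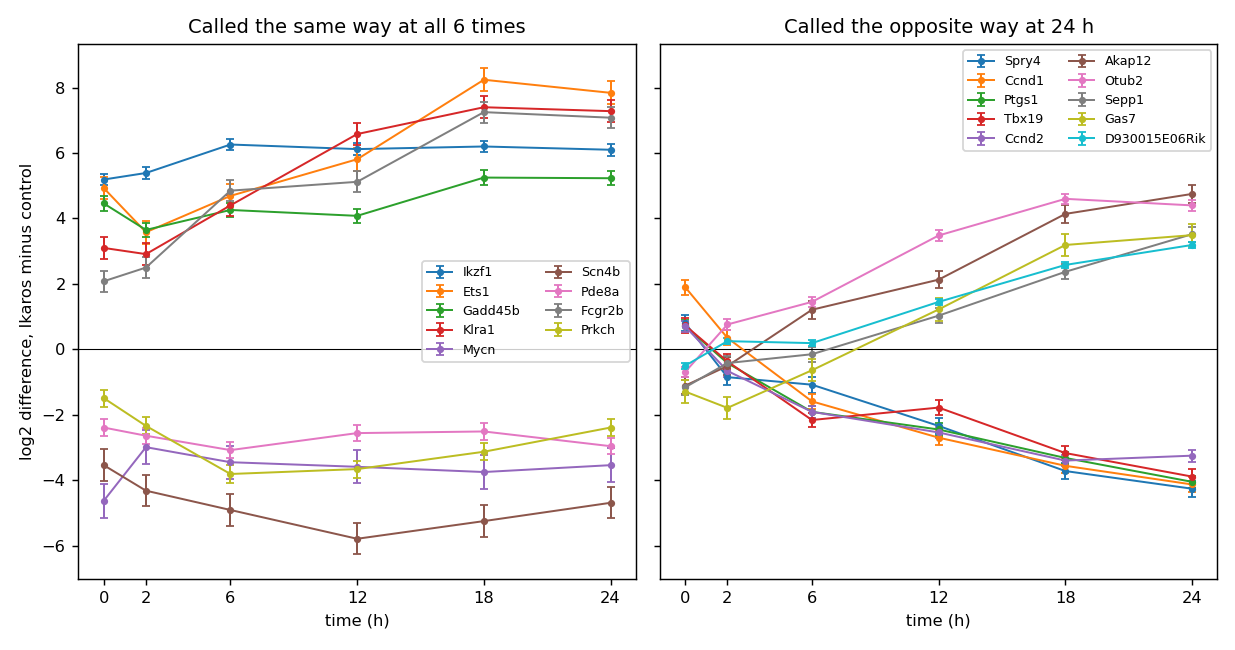
The log2 difference between the lines (Ikaros minus control, vertical axis) at each time (horizontal axis, h), with bars for the SE of the model and 3 libraries per line and time. On the left are 9 genes called the same way at all 6 times, such as Mycn at -4.63 and -3.54 at 0 and 24 h; on the right are the 10 called the opposite way at 24 h, such as Ccnd1 at 1.90 and -4.13.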

How the data were processed

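The samples were grouped by the line, time and batch given in their labels. Per the labels and the study's methods, the authors aligned 75-base paired-end reads of strand-specific libraries to mm10 with TopHat2, counted them per gene with HTSeq, normalised with cqn for GC content and length, and applied a non-parametric ComBat for library preparation. Versions were not given in the sources used here. The deposited values are log2, with a constant added so that the lowest is 1; the base is taken from cqn and is not stated in the table. The strand setting of the counting is likewise not stated, and depth is unknown, so precision rests on 3 libraries per group. An adjustment made before deposition can make the standard errors too small.

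All 36 libraries were fitted as 12 group means in limma 3.58.1 (R 4.3.3), and two-sided p-values were corrected over 12762 genes (Benjamini-Hochberg). The fit was tested on simulated data. Levels and differences are log2 throughout, and fold changes are 2 to the power of the difference. Positions came from GENCODE M21 (GRCm38) by Ensembl identifier (98.7% of genes), and promoters from RefSeq. The members and the gene lists were chosen with earlier results of these data known. Named genes were Ikzf1, the 15 largest called rises and falls without overlap between the groups among genes whose mean reached the 25th percentile, the 5 largest per direction called the same way at all 6 times or the opposite way at 24 h, and up to 4 called members of each list with its defining members. The labels give both lines the same batch numbers at 0 h, and that these are culture batches is read from the methods. The deviations of same-batch libraries correlated by 0.117, 0.0658 and 0.376. Those of libraries from different batches correlated by -0.332 to 0.258, so the pairing was weak. Replicate blocks, a preparation term, an expression filter, other normalisations and left-out libraries, 18 alternatives in all, were compared. Some genes are not reported here.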

Additional observations from a re-analysis of the deposited data

Results flagged for a closer look

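For 32 of the 42 named genes the difference between the lines itself changed from 0 h to 24 h by the test of that change (limma, Benjamini-Hochberg adjustment), as it did for 48.4% of all genes. The values in brackets are the log2 difference at 24 h minus that at 0 h. Each change uses the 0 h libraries described above at its 0 h end, so it is not independent of the 0 h differences, and several genes were named because they reversed, for which the change is a description.

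The difference widened for 5 genes that were higher at 0 h, Ikzf1 (0.90), Ets1 (2.91), Gadd45b (0.77), Klra1 (4.17) and Fcgr2b (4.99). It widened for 2 that were lower, Lrrc32 (-2.25) and Prkch (-0.89). It became narrower for 7 higher genes, Nudt4 (-2.75), Mvb12b (-1.18), St5 (-1.36), Rgs8 (-2.34), Emp1 (-1.87), Colq (-0.83) and Adcy6 (-0.80). For 3 lower genes it shrank or lost its call, Gm12840 (3.35), Cmtm8 (1.71) and Pim1 (2.00).

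The direction was the opposite at 24 h for 7 genes that had been higher, Nrgn (-4.52), Ndrg1 (-4.19), Spry4 (-5.06), Ccnd1 (-6.03), Ptgs1 (-4.76), Tbx19 (-4.62) and Ccnd2 (-3.95). It was the opposite for 8 that had been lower, Hbb-b2 (5.24), Il2ra (4.83), A930003A15Rik (3.63), Akap12 (5.86), Otub2 (5.08), Sepp1 (4.67), Gas7 (4.78) and D930015E06Rik (3.69).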

How the results depend on the processing

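No named gene and none of the called list members examined changed sign at 0 h in any of 18 alternatives. Of the 42 named genes, 33 kept their call in every alternative that held them and 9 lost it in at least 1; of 79 called list members, 44 lost theirs in at least 1. A replicate block on the batch number of the labels gave 1361 genes and 128 list members in place of 98. With the 0 h cultures as blocks apart from the later ones the count was 1497 genes, which held 1061 of the 1063 calls (99.8% of these and 70.9% of the 1497), and 149 list members; no named gene lost its call under either block. Block and GC correction together gave 724 lower genes and 152 list members. With the preparation run as a term 443 genes were called (267 higher, 176 lower, 299 with a difference of at least 1) and 42 list members; of the genes called there, 51.7% of the higher ones kept their direction and 17.2% took the opposite at 24 h, and 25% of the lower ones took the opposite. Each 0 h library had its own run, and the cause of the drop was not tested. With low-expressed genes below the 25th percentile left out, 701 genes were called (375 higher, 150 with a difference of at least 1), fewer because fewer genes were tested.

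Leaving out 1 library or 1 batch, which leaves fewer samples, gave 495 to 952 called genes, 295 to 521 higher and 200 to 431 lower, 314 to 474 with a difference of at least 1, and 50 to 93 list members. At 24 h, 57.1% to 61.9% of the higher and 43.5% to 49.7% of the lower genes kept their direction, and 20.1% to 22.7% and 26.0% to 34.9% took the opposite. The lowest chromosome median, that of chromosome 8 (-0.057), was -0.038 with the expression filter and -0.042 with GC content and length removed, and -0.070 to -0.040 without 1 library; that of chromosome 5 (0.010) was -0.008 to 0.020.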
